A study of Rattus norvegicus with 23 samples.

Results

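The 150 genes described here were well expressed in rat liver and moderately higher in daughters than in sons of dams that breathed filtered air. Their level was measured as CPM (a gene's count divided by the library's total and scaled to 1000000). A gene was chosen when its mean CPM in air daughters was from 2 to below 4 times that in air sons and the mean of both groups was below 1000 CPM. Of 18056 genes in the table, 1322 met these limits, and the 150 with the highest mean were taken. The study sequenced poly(A) RNA of 23 livers from offspring at about postnatal day 48, whose dams had inhaled 0.8 ppm ozone or filtered air on gestation days 5 and 6. The groups held 6 air daughters, 6 air sons, 6 ozone daughters and 5 ozone sons. No group carries an engineered allele in the labels, and the strain and the dam of each animal are not named in the sources used here, so littermates cannot be recognised and p-values treat each animal as independent. The labels mention repeated ozone exposures of some rats in chambers and do not name the animals. Each library's name gives an ozone level of 0 ppm; had some offspring inhaled ozone themselves, the ozone groups would not stand for the maternal exposure alone.

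The liver is among the organs with the most sex-dependent expression in rodents. The pituitary secretes growth hormone in widely spaced pulses in male rats and more evenly in females, and hepatocytes read this pattern through the growth hormone receptor, the kinase JAK2 and the transcription factor STAT5b. Enzymes of steroid, drug and lipid metabolism are among the products that differ between the sexes, and the difference unfolds around puberty. The deposited table identifies genes by Ensembl identifier alone, and 0 of the 18056 identifiers have a gene symbol in the tables at hand. The genes are therefore described by identifier for 4 of them, by rank of abundance and as a group; their roles, their promoter sequences and the hepatocyte markers of the tissue were not analysed here.

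Total counts lay between 8000498 and 15594817 per library. Library names fell into 2 styles, treated as a technical batch because sample numbers overlap between them, and the styles were uneven: 1 ozone daughter and 4 ozone sons had style 1, and 5 ozone daughters and 1 ozone son had style 2. All 11 ozone libraries matched the sex on their label by genes seen in 1 sex alone among air livers (3 in air daughters and 7 in air sons). Of the values, 19.8% were not whole numbers (tolerance 1e-06), which arises where reads are divided between genes or transcripts. Among the 150 genes, 72 had such values in 1 or more libraries, beside 33.2% of all genes, and their levels are less certain; the median ratio of ozone daughters to ozone sons was 1.20 in these and 1.14 in the genes with whole counts.

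In air livers, which chose the genes, mean levels ran from 45.5 to 1379.5 CPM in daughters (median 114.1) and from 17.1 to 482.4 CPM in sons (median 46.7). The ratio of air daughters to air sons had a median of 2.28, with quartiles of 2.10 and 2.54. In 132 of the 150 genes the lowest air daughter was above the highest air son; 13.8% of the 12022 genes with a mean of at least 1 CPM had this pattern. In the remaining genes at least 1 daughter and 1 son overlapped in spite of the difference in means. Together the 150 genes took 2.78% ± 0.36 of all counts in air daughters and 1.14% ± 0.12 in air sons (SD, n = 6 and 6). These values follow from the rule and are given without a test.

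The limits of the rule cut through a continuous range. The genes just inside the lower limit had ratios of 2.002, 2.002 and 2.004, and the nearest outside, at a comparable level, 1.9998, 1.999 and 1.992. At the upper end the members nearest the limit had ratios of 3.94, 3.76 and 3.74, and the nearest genes beyond it 4.14, 4.25 and 4.85. The last 3 genes taken by level had means of 34.9, 34.3 and 34.0 CPM, and the next 3 had 33.6, 33.5 and 32.9 CPM. A further 8 genes had a ratio from 2 to below 4 but a mean of 1000 CPM or more, and 18 genes in the members' range of level had a ratio of 4 or more.

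The comparison that the choice of genes did not use is that of ozone daughters with ozone sons. Most of the sex difference was smaller there: the ratio of mean CPM had a median of 1.16 (quartiles 1.05 and 1.44) against 2.28 in air livers. Ozone daughters were the higher group in 122 genes by mean CPM and the lower one in 28. A ratio of 2 or more was kept by 17 genes, 15 lay from 1.5 to below 2, and 90 from 1 to below 1.5. Genes chosen for a high ratio in one set of animals tend to show a lower one in another, and how much of the drop this makes up was not tested.

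By edgeR's quasi-likelihood test over all 12792 genes that passed the filter on low counts, 27 of the 150 genes (18%) were higher in ozone daughters at an adjusted p below 0.05 and 0 were lower (n = 6 and 5). Of all genes tested, 2.92% were called higher and 3.15% lower. No member was lower at an unadjusted p below 0.05 either, and DESeq2 and limma voom called 0 lower and 33 and 30 higher. Over all genes DESeq2 and limma voom called 961 and 756 in either direction, against 776 by edgeR. The median log2 difference of the fit was 0.25 over the members and 0.02 over all genes. In 14 genes every ozone daughter was above every ozone son, a pattern of 1.77% of genes; all 14 were among the 27, and the ranges of the other 13 overlapped. The 27 calls came from a fit of all livers. The air livers that chose the genes thus also entered its estimates of spread and of the name style term. Adjusted p-values given below for single genes come from the same fit unless stated. With the ozone libraries fitted alone, so that no air liver entered, 15 of the 150 were called. The count was 25 when the name style was also left out. Calls over all genes were 340 and 624 in these fits, against 776 with all livers, and the members' median log2 difference was 0.27 and 0.20. Within style 1 (1 daughter, 4 sons) 135 of the 150 ratios were above 1, with a median of 1.29, and within style 2 (5 daughters, 1 son) 112 were, with a median of 1.20. Across all genes with at least 1 CPM the shares above 1 were 47.5% and 61.2%, with medians of 0.986 and 1.07.

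**Figure D1:**
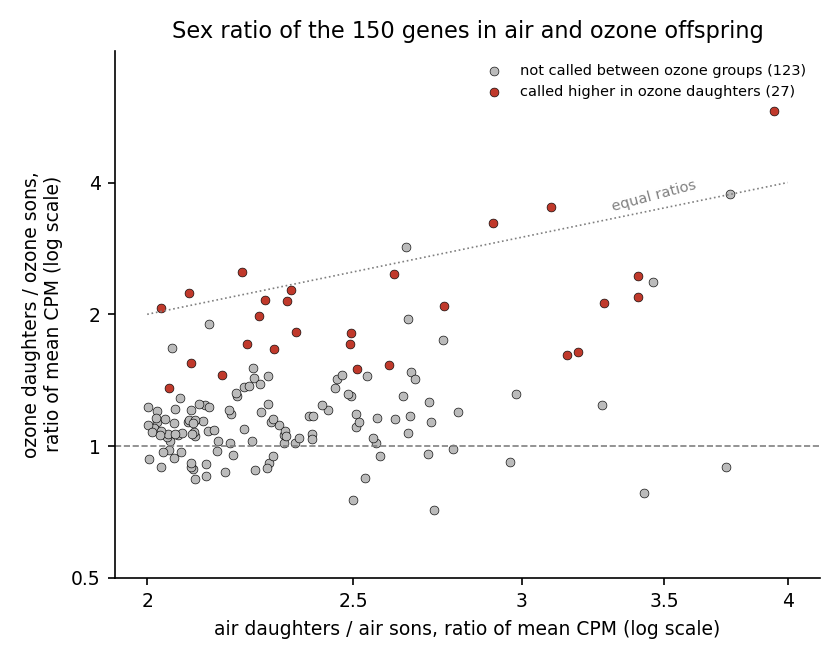
Ratio of mean CPM of daughters to sons for each of the 150 genes, in air livers on the horizontal axis (the values that chose the genes) and in ozone livers on the vertical axis, both on log scales. Red points are the 27 genes called higher in ozone daughters in the fit of all livers, air livers included. The dashed line marks equal sexes in ozone livers and the dotted line equal ratios in air and ozone livers. Most points lie between ratios of 1 and 1.5 in ozone livers, with a group of 17 at 2 or more.

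The 10 most abundant of the genes divided between these behaviours, with 5 called higher in ozone daughters. The gene ranked 2 by level kept its difference. It ran from 663.3 to 1882 CPM in air daughters (median 1305) and from 318.7 to 662.6 in air sons (median 393.5). In ozone daughters it ran from 1024 to 1796 CPM (median 1295). The 5 ozone sons had 465.2, 136.5, 507.2, 563.6 and 453.0 CPM. Every ozone daughter was above every ozone son, and the log2 difference of the fit was 2.07 with an SE of 0.32 (edgeR adjusted p = 0.00016).

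For the gene ranked 10, air daughters had 439.6 to 544.2 CPM (median 515.4), air sons 212.8 to 324.2 (median 239.7) and ozone daughters 403.3 to 491.5 (median 473.9). Ozone sons had 210.3, 214.2, 306.2, 194.8 and 195.9 CPM. Both pairs of groups were separate by sex, with a log2 difference in ozone livers of 1.13 and an SE of 0.14 (edgeR adjusted p = 5.31e-06, the lowest among the 150). The gene ranked 5 behaved alike, with means of 962.8 ± 122.0 CPM in air daughters, 283.0 ± 112.1 in air sons, 765.0 ± 174.6 in ozone daughters and 312.7 ± 125.0 in ozone sons (SD; edgeR adjusted p between the ozone groups = 7.04e-05).

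The genes ranked 1 and 7 were called between the ozone groups at smaller ratios, 1.64 and 1.61, against 3.19 and 3.15 in air livers. For the gene ranked 1, ozone sons had 750.8, 410.6, 648.6, 577.3 and 672.6 CPM, and ozone daughters 712.7 to 1435 CPM (median 961.6). Air sons lay at 319.0 to 502.1 CPM (median 437.3) and air daughters at 1203 to 1846 (median 1300), so 4 of the 5 ozone sons were above every air son and all 5 below every air daughter, while the ozone groups overlapped.

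The genes ranked 3, 6, 8 and 9 were not called between the ozone groups. For the gene ranked 9, air daughters ran from 448.1 to 749.7 CPM (median 556.0), air sons from 203.6 to 284.9 (median 247.0) and ozone daughters from 283.3 to 633.7 (median 472.3). Ozone sons had 402.6, 413.5, 431.5, 275.1 and 449.8 CPM. In 4 of the 5 ozone sons it was above every air son, and all 5 ozone sons lay within or below the range of ozone daughters (log2 difference of the ozone groups 0.23, SE 0.19, edgeR adjusted p = 0.629). The gene ranked 4 averaged 614.8 ± 286.5 CPM in ozone daughters and 584.0 ± 144.6 in ozone sons (SD), a difference well within the spread of either group.

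At the ends of the order by log2 difference between ozone daughters and ozone sons stood genes with wide differences between animals. ENSRNOG00000013251, whose air ratio of 3.94 was the highest of the 150, ran from 68.3 to 143.4 CPM in air daughters (median 80.3) and from 7.00 to 66.4 in air sons (median 18.2). It ran from 80.2 to 169.3 CPM in ozone daughters (median 127.3). Ozone sons had 16.0, 4.89, 16.4, 66.5 and 4.55 CPM. No ozone son reached the lowest ozone daughter, and ozone sons replicate 4 was far above the other ozone sons. The ratio of means was 5.83, and the log2 difference of the fit, which also adjusts for name style, was 3.52 with an SE of 0.64 (edgeR adjusted p = 0.000811; with the ozone libraries alone the difference was 3.34 with an SE of 0.87, and the call was lost at an adjusted p of 0.0684).

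ENSRNOG00000056847 came next, with a ratio of 3.52 in ozone livers against 3.10 in air. Ozone daughters ran from 14.1 to 64.0 CPM (median 37.7), and ozone sons had 19.1, 3.08, 13.2, 12.1 and 6.43 CPM. Air daughters had 33.1 to 116.3 CPM (median 44.3) and air sons 6.82 to 43.3 (median 13.2). The lowest ozone daughter was below the highest ozone son, and the log2 difference was 2.52 with an SE of 0.54 (edgeR adjusted p = 0.00419). Some of its counts were not whole, so its level is less certain.

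At the other end ENSRNOG00000062158 had the lowest ratio of the 150 in ozone livers, 0.716. Ozone sons had 164.5, 217.6, 196.9, 104.6 and 299.0 CPM, and ozone daughters ran from 85.3 to 196.9 CPM (median 143.9). Air sons ran from 29.8 to 212.5 CPM (median 44.1) and air daughters from 83.6 to 319.4 (median 190.0). The ozone groups overlapped and their log2 difference of -0.66, with an SE of 0.49, did not pass (edgeR adjusted p = 0.59).

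ENSRNOG00000014866 followed. Ozone sons had 51.2, 51.7, 48.9, 28.7 and 52.8 CPM, and ozone daughters ran from 14.6 to 60.3 CPM (median 33.9). Air sons averaged 20.4 ± 3.40 CPM (SD) and air daughters 30.8 to 82.9 (median 48.5). Every ozone son was above every air son, 4 of the 5 within a narrow band, while the ozone groups overlapped. Their log2 difference was -0.50 with an SE of 0.29 (edgeR adjusted p = 0.419).

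**Figure D2:**
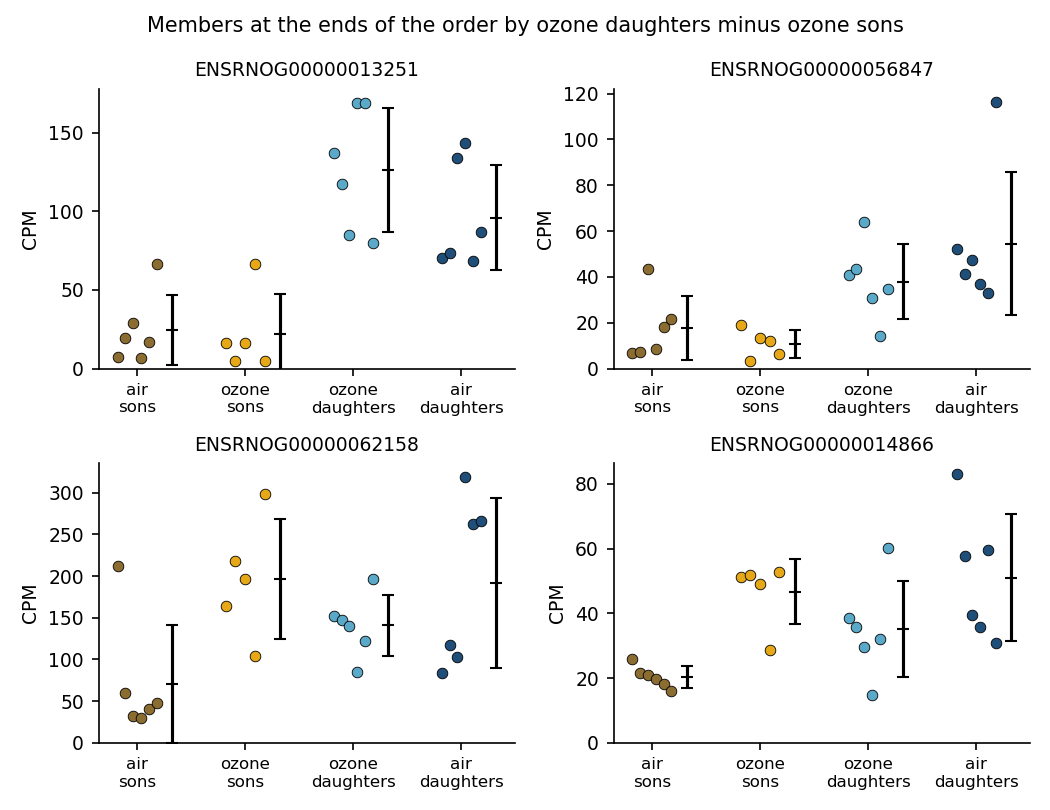
CPM of 4 of the genes in each liver, by group; each point is 1 animal, and the bar beside each group is the mean ± SD (the axis starts at 0, where lower bars end). In the upper panels the ozone sons lie low, with 1 ozone son at 66.5 CPM for ENSRNOG00000013251; in the lower panels most ozone sons lie above most air sons.

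Ozone sons were then set against air sons, and ozone daughters against air daughters. The air livers of these comparisons also chose the genes, low in sons and high in daughters, and this choice alone moves both comparisons toward the other sex, so the counts are a description. In ozone sons 75 of the 150 genes (50%) were called higher and 0 lower (edgeR, adjusted p below 0.05, n = 5 and 6), beside 7.24% higher and 5.75% lower of all genes tested. At an unadjusted p below 0.05, 1 member was lower. DESeq2 and limma voom called 91 and 66 members higher and 0 lower. Over all genes these called 2296 and 1549 in either direction, against 1661 by edgeR. By mean CPM, 139 genes were higher in ozone than in air sons, with a median ratio of 1.53 (quartiles 1.33 and 1.71). The median log2 difference of the fit was 0.61 over the 150 genes and -0.01 over all genes. In 28 of the genes every ozone son was above every air son, a pattern seen in 3.66% of genes.

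The number called in ozone sons rested on single livers, while the median difference moved little. It was 4 without ozone sons replicate 2, the only ozone son of name style 2, and 33, 41 and 48 without ozone sons replicates 1, 3 and 5. Calls over all genes fell as well, from 1661 to 108, 450, 631 and 823 in the same fits. Without ozone sons replicate 4 the members' count rose to 93, of which 92 were higher and 1 lower, with 3129 over all genes. Without air sons replicates 2 and 6 it was 45 and 38, with 786 and 751 over all genes. Leaving out any 1 of the 11 sons gave a median log2 difference between 0.55 and 0.69. Within style 1 (4 ozone and 3 air sons) the median ratio was 1.55 and 16 genes were called, and within style 2 (1 and 3) the median ratio was 1.46.

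Values for the largest changes show the range. The air sons in these comparisons also chose the genes, and the genes below were then taken from the ends of the order. Their SE and adjusted p for ozone against air sons are therefore a description and not a test. The largest log2 rise in ozone sons was 1.66 with an SE of 0.36 (edgeR adjusted p = 0.0126), in the gene ranked 21 by level, from a mean of 94.9 CPM in air sons to 286.6 in ozone sons. Ozone daughters averaged 223.5 CPM for this gene and air daughters 324.9, and the ozone groups overlapped, from 137.8 to 441.1 CPM in sons and from 128.1 to 393.2 in daughters (log2 difference of daughters minus sons -0.45, SE 0.39, edgeR adjusted p = 0.661). The largest fall in ozone sons, by 0.98 on the log2 scale in ENSRNOG00000056847, did not pass (edgeR adjusted p = 0.153).

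In ozone daughters 0 of the 150 genes passed the test against air daughters, as did 0% of all genes (edgeR, n = 6 and 6). At an unadjusted p below 0.05, 21 members were lower and 1 higher. DESeq2 and limma voom called 0 members, and 4 and 0 over all genes. By mean CPM 144 genes were lower in ozone daughters, with a median ratio of 0.802 (quartiles 0.746 and 0.868). The median log2 difference of the fit was -0.29 over the members and 0.01 over all genes. In 0 genes was every air daughter above every ozone daughter, against 0.25% of genes. Within style 1 (1 ozone and 5 air daughters) the members' median ratio was 0.894 and within style 2 (5 and 1) it was 0.782. Across all genes with at least 1 CPM these medians were 0.994 and 0.997.

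The ozone effect was higher in sons than in daughters in 63 of the 150 genes and lower in 0 (interaction term, edgeR, adjusted p below 0.05), beside 5.15% higher and 5.46% lower of all genes. At an unadjusted p below 0.05, 1 member was lower. DESeq2 and limma voom called 89 and 59 members higher and 0 lower. Over all genes these called 2154 and 1128 in either direction, against 1357 by edgeR. In 150 genes chosen by the same limits for air sons over air daughters, 0 were higher and 71 lower. The interaction term is the difference of air daughters minus air sons, less that of the ozone groups. It therefore contains the difference that chose the genes, which by itself moves the term upward. The members' count is thus a description. The count was 0 without any one of air daughters replicate 2, air sons replicates 3 and 6 or ozone sons replicate 2. In these 4 fits the calls over all genes also fell, from 1357 to 0, 1, 0 and 0, while the members' median log2 term was 0.84, 0.97, 0.87 and 0.87, against 0.90 with all livers. The members' count was 22, 25 and 25 without ozone sons replicates 1, 3 and 5, with 403, 508 and 468 over all genes. It was 28, 31 and 97 without ozone daughters replicates 3, 5 and 6, with 558, 640 and 2509 over all genes. Without air daughters replicates 1 and 5 it was 36 and 29, with 715 and 561 over all genes. Without air sons replicate 2 it was 35, with 727 over all genes. Without the name style term it was 110, with 3108 calls over all genes.

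**Figure D3:**
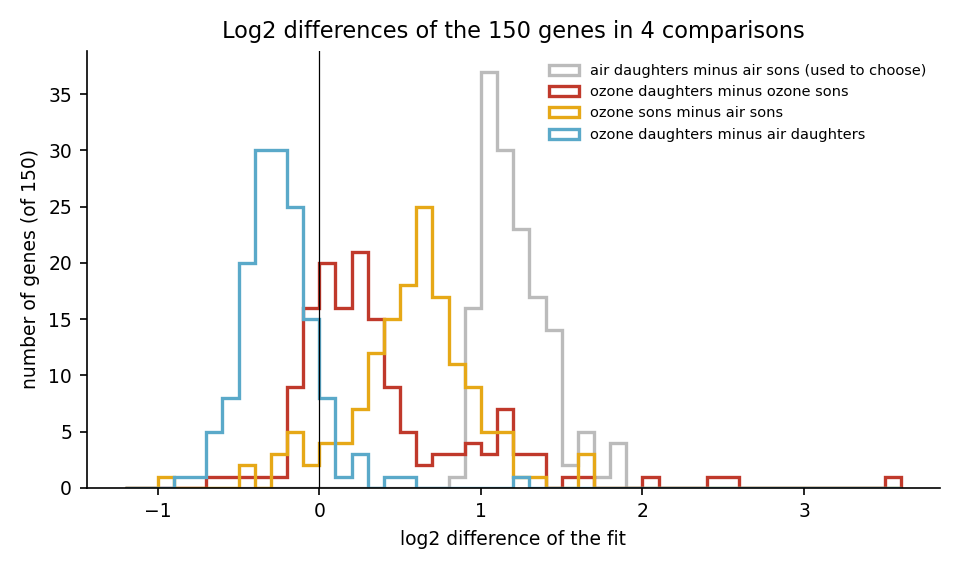
Number of the 150 genes by log2 difference of the fit in 4 comparisons, in steps of 0.1. The grey outline is the contrast that chose the genes; ozone daughters minus ozone sons (red) centres on a median of 0.25 with a tail to 3.52, ozone sons minus air sons (orange) on 0.61 and ozone daughters minus air daughters (blue) on -0.29.

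The order of the 4 group means was the same in most of the genes. In 108 of 150 it ran from air sons through ozone sons and ozone daughters to air daughters. The choice of genes set air sons below air daughters and by itself favours ozone means between them, so this count is a description. Only the order of the ozone groups was not used by the choice, with ozone daughters higher in 122 genes. The genes took 1.68% ± 0.25 of all counts in ozone sons (n = 5) and 2.27% ± 0.50 in ozone daughters (SD, n = 6), between the 1.14% and 2.78% of the air groups. In 38 genes every ozone daughter was above every air son, as in 3.34% of genes, and in 40 every air daughter was above every ozone son, as in 3.14%; the air livers in both chose the genes.

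Each liver was placed on a scale for each gene, from 0% at the mean of air sons to 100% at that of air daughters, and the median over the 150 genes was taken. Air livers define this scale. Air sons lay between -8.4% and 10.1%, and air daughters between 62.6% and 135.1%. The 5 ozone sons lay at 56.9%, 38.7%, 56.2%, 10.3% and 46.4%, so 4 of them were well above the air sons and replicate 4 was level with the highest air son. Ozone daughters lay at 90.6%, 81.6%, 43.7%, 11.7%, 44.4% and 113.1%, a wider spread than in any other group (SD 37.3 percentage points, against 27.0 in air daughters, 19.1 in ozone sons and 7.4 in air sons). Replicates 3, 4 and 5 of the ozone daughters lay within the range of the ozone sons, and replicates 1, 2 and 6 within that of the air daughters.

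**Figure D4:**
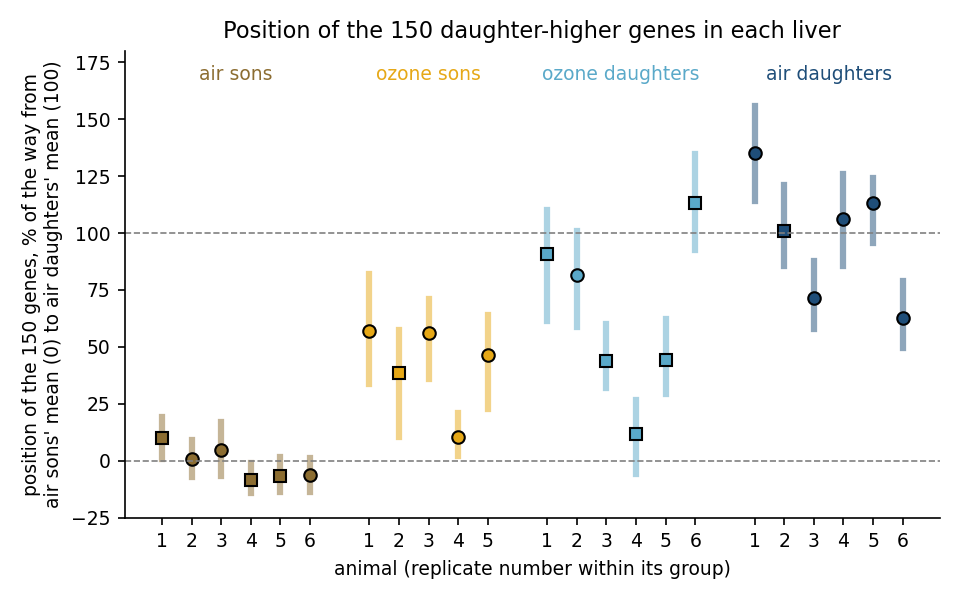
Position of the 150 genes in each of the 23 livers, as a percentage of the way from the mean of air sons (0, dashed) to that of air daughters (100, dashed). Points are the median over the genes (circles name style 1, squares name style 2) and bars run between the quartiles of the genes; the air livers lie apart by sex, while ozone livers spread from 10.3% to 113.1%.

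The same unevenness showed in the counts of genes nearer, on a log scale, to the air daughters' mean than to the air sons'. Among air sons 0 to 10 of the 150 were, and among air daughters 132 to 150. Among ozone sons the counts were 102, 73, 107, 14 and 91, and among ozone daughters 134, 135, 90, 28, 87 and 150. Ozone daughters replicate 4, at 28, was thus lower than 4 of the ozone sons. The median SD of log2(CPM + 0.5) within a group was 0.45 in ozone daughters, 0.34 in ozone sons, 0.33 in air daughters and 0.26 in air sons. For other genes in the same range of level it was 0.25, 0.22, 0.21 and 0.19.

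The 27 genes called higher in ozone daughters, in the fit of all livers, lay differently in ozone sons than the other 123. Over the 27, ozone sons had moved 7.4% ± 14.7 of the way to the air daughters' mean, and over the 123, 47.1% ± 21.0 (SD over 5 animals). Ozone daughters lay at 71.8% ± 18.6 and 62.3% ± 41.5 (SD over 6 animals). Of the 27 genes 1 was also called higher in ozone than in air sons, and of the 75 genes called higher in ozone sons 74 were not called between the ozone groups; 49 genes were called in neither comparison. Ozone sons enter both comparisons with opposite sign, which by itself separates the lists, so this is a description with no test.

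The genes also differed in how they varied between animals of the same sex and exposure, a measure that the group means do not enter. After group means were removed, the median correlation between pairs of the 150 genes was 0.53 over the 23 livers (quartiles 0.23 and 0.72), and 87.1% of pairs had a positive one. Pairs among 3083 other genes in the same range of level had a median of 0.03 (quartiles -0.24 and 0.30). The members were all chosen for 1 direction of sex difference, and these other genes were not. Positive and negative pairs can therefore cancel in the median of the other genes. How much of the contrast with the members this makes up was not tested. A single principal component held 43.1% of the members' variance within groups, and 139 of the 150 genes had the same sign on it. In air livers alone the members' first component held 32.9%, and in ozone livers alone 58.5%. In the 3083 other genes the first component held 28.3%, with 23.5% in air livers and 43.8% in ozone livers. Over the 23 livers 1773 of the 3083 genes had the same sign on it. In the 12 air livers alone the median pairwise correlation was 0.39, and in the 11 ozone livers 0.67. The 150 genes with the reverse pattern were chosen by the same limits for air sons over air daughters. They had a median of 0.51 over the 23 livers, 0.42 in the air livers and 0.62 in the ozone livers. Their first component held 51.5% of variance, with 142 of 150 genes on the same sign. Covariation was therefore not particular to the daughter-higher genes. All pairs share the same livers and libraries, and the correlations are given as a description.

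A gene's covariation with the others in the air livers went with its sex ratio in the ozone livers, which are different animals. The measure was the correlation of each gene with the median of the other 149, over the 12 air livers with group means removed. It had a median of 0.18 in the 17 genes with a ratio of 2 or more in ozone livers, and 6 of these had a negative one. It was 0.63 in the 15 genes from 1.5 to below 2, 0.70 in the 90 from 1 to below 1.5 and 0.73 in the 28 below 1, with 1 negative value in these 133 genes. ENSRNOG00000013251 had -0.23 and ENSRNOG00000056847 -0.34, while ENSRNOG00000014866 had 0.82 and ENSRNOG00000062158 0.18. Values ran from -0.49 to 0.65 in the 17 genes and up to 0.95 in the 133. Genes of either kind overlapped, and the relation is given as a description with no test.

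**Figure D5:**
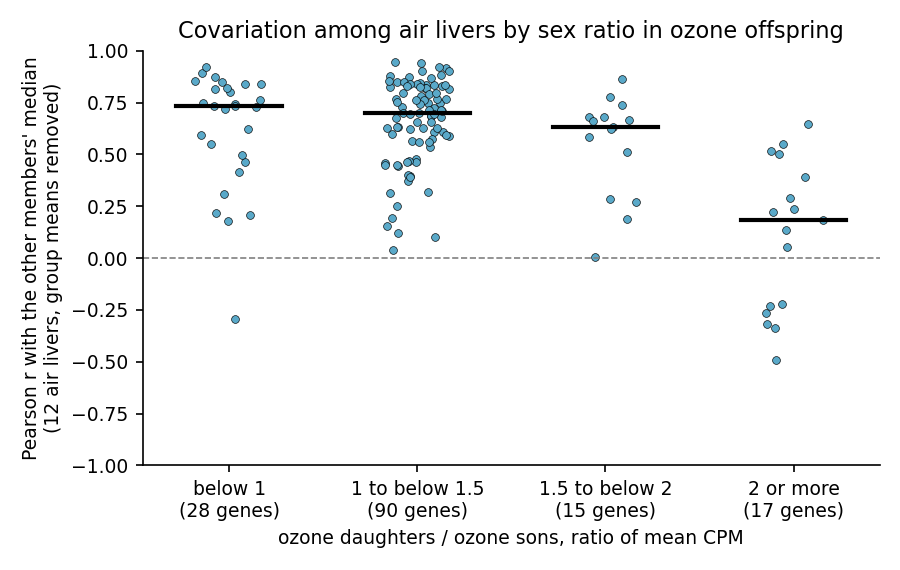
Pearson correlation of each gene with the median of the other members over the 12 air livers, group means removed, for genes grouped by the ratio of ozone daughters to ozone sons; each point is 1 gene and bars are medians. Genes with a ratio of 2 or more centre on 0.18 and reach -0.49, and the other 3 groups centre on 0.63 to 0.73.

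The genes were also divided by size of the air difference and by level. Split in 3 groups of 50 by air ratio, the median ratio of ozone daughters to ozone sons was 1.09, 1.18 and 1.32 from the smallest to the largest air ratios. The median ratio of ozone to air sons was 1.51, 1.56 and 1.58 in the same groups, and that of ozone to air daughters 0.809, 0.804 and 0.792. Split by level, the ratio of the ozone groups was 1.14 and 1.12 in the lower groups and 1.31 in the 50 genes above 107.8 CPM. The 17 genes that kept a ratio of 2 or more had a median air ratio of 2.76 and a median level of 111.2 CPM, and their median ratio of ozone to air sons was 0.983. In the other 133 genes these were 2.25, 76.8 CPM and 1.56. Ozone sons enter the ratio that set the 17 apart, so a low ratio of ozone to air sons follows in part from that choice.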

How the data were processed

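The authors deposited 1 table of estimated counts per Ensembl gene for 23 liver libraries. Per the submitters' processing notes, STAR 2.6.1d, Partek, DESeq2 and the rn6 build were used; for annotation, strand and counting settings nothing is stated in these sources. None of the identifiers occurs in the RefSeq gene table at hand (GRCr8, 47357 genes), so gene lists by symbol could not be applied, and the rule for named genes (the ends of the order by ozone daughters minus ozone sons, and the 10 highest levels) was shortened to 2 identifiers at each end and to ranks. Members, lists and comparisons were chosen with earlier results of these data known.

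CPM was computed on column totals. Counts were rounded to whole numbers and fitted with edgeR 4.0.16 in R 4.3.3. Genes passing filterByExpr numbered 12792 and held 99.9% of counts; all 150 members passed. Scaling was by TMM (factors 0.941 to 1.054). A quasi-likelihood model had 4 group means and a name style term (18 residual degrees of freedom), with Benjamini-Hochberg adjustment over all genes tested at 0.05. The SE is the log2 difference divided by the square root of F. The fit was tested on simulated data. Alternatives were DESeq2 1.42.0, limma voom 3.58.1, RLE scaling, no filter, no style term, subsets of libraries and leaving out each library. The 55 same-group pairs of libraries gave chi-square values per degree of freedom from 12.7 to 83.5, so none was a copy. The number of counts limits precision for lower levels.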

Additional observations from a re-analysis of the deposited data

Results flagged for a closer look

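In 6 of 28 sets of values a single liver stood apart, its gap to the nearest other liver of the group being above Dixon's critical value as a share of the group's range. Chance flags about 1 in 20 such sets of normally distributed values. That rate was not shown for these values, since all but the total count are CPM of genes taken from the ends of the order, which varied widely between animals. The total count of ozone sons replicate 2 was 14098393, with the next at 11272214. ENSRNOG00000013251 stood apart at 66.4 CPM in air sons replicate 6 (next 29.0) and at 66.5 CPM in ozone sons replicate 4 (next 16.4). ENSRNOG00000056847 had 116.3 CPM in air daughters replicate 6 (next 52.3), and ENSRNOG00000062158 had 212.5 CPM in air sons replicate 1 (next 59.4). ENSRNOG00000014866 was low in ozone sons replicate 4, at 28.7 CPM with the next at 48.9.

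The interaction term passed for 63 of the 150 genes (edgeR, adjusted p below 0.05), beside 5.15% of all genes called higher in sons. It contains the difference between air daughters and air sons that chose the genes, so this count is a description. The count was 0 without any one of 4 single livers. Without these livers 0 or 1 of all genes were called, and the members' median stayed between 0.84 and 0.97.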

How the results depend on the processing

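In brackets are the calls over all genes, in either direction, of the same fits. The count of genes higher in ozone daughters than in ozone sons was 27 (776). It was 15 (340) with the ozone libraries alone, a fit with fewer samples. With any single ozone liver left out it was 19 to 29 (389 to 854). For ozone against air sons the count was 75 (1661), and 16 (234) within name style 1, again with fewer samples. With any single son left out it was 4 to 93 (108 to 3129). The interaction count was 63 (1357), and 110 (3108) without the name style term, where the cause was not tested. With any single liver left out it was 0 to 97 (0 to 2729). Ozone against air daughters gave 0 in all 12 fits that left out a daughter. RLE scaling, no filter on low counts, DESeq2 and limma voom kept each count within 1.5 times, and no identifier named changed its direction in any fit. The rule on TMM-scaled totals chose 144 of the 150 genes again, and 118 to 140 with any single air liver left out. The name style and the ozone groups were nearly confounded, and genes under about 34 CPM were outside the choice. No paired analysis was possible because replicate numbers were given in accession order and pair no animals.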
